A study of Mus musculus with 2 samples.

Results

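The cells described here were chosen by their transcripts from single-cell RNA sequencing of mouse femur and tibia. They number 842 of the 55783 cells kept from both libraries, 340 of 26466 in Control and 502 of 29317 in Dach1OE. A chosen cell held at least 1 unique molecular identifier (UMI, a tag that marks 1 captured RNA molecule) of at least 2 of Aspn, Omd and Pi15. It held no UMI of Cdh5 (endothelial cells, ECs), Ptprc (blood cells), Mmp9 (osteoclasts and septoclasts) or Ifitm5 (osteoblasts), and fewer than 5 UMIs of Acan (cartilage). It held UMIs of fewer than 3 of the marrow stromal genes Adipoq, Lepr, Esm1, Hp, Lpl and Chrdl1, and none of the periosteal and tendon fibroblast genes Clec3b, Dpt, Pi16, Tnmd and Angptl7. Because the cells were selected on these genes, the levels of the genes are given as a description only.

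The study asked what forced expression of Dach1, a transcription factor gene linked to artery growth, in bone ECs does to the vessels and to the cells around them. Control mice carried 1 floxed overexpression allele and no Cre (Dach1OE +/f), and Dach1OE mice carried the same allele with the tamoxifen-inducible Cre (Apj CreERT2 - Dach1OE +/f). Both groups were C57BL/6, of both sexes, were given tamoxifen in the first days of life and were taken at postnatal day 30. The Cre is driven by Aplnr (Apj), the apelin receptor gene, which marks capillary and venous ECs. Epiphyses were removed, the bones were crushed and digested, and blood cells were depleted before capture. The transgene was visible in ECs, where the driver is active: Dach1 was at 4.90 CPM in Control and 159 CPM in Dach1OE (CPM, UMIs per 1000000 UMIs summed over the cells of a set). In the chosen cells that held Omd, Dach1 was at 3.96 CPM in Control and 5.13 CPM in Dach1OE. Those cells held 757085 and 584652 UMIs in all, so their Dach1 levels rest on only a few UMIs. Each group was 1 library made from 2 mice, so mouse, library and genotype cannot be told apart. No test was therefore run, and the 95% intervals below cover counting error only.

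The libraries held 143986818 UMIs in 28720 listed cells (Control) and 166999989 UMIs in 32028 listed cells (Dach1OE). The chosen cells contributed 1181098 and 1440638 UMIs. Their median depth was 3050 UMIs a cell in Control and 2359.5 in Dach1OE, against 3296 and 3187 in ECs, and a median of 13.4% and 14.1% of their UMIs were mitochondrial. The tables shared 1049 cell labels, and 0 chosen cells carried a label that was chosen in both libraries.

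Aspn encodes asporin and Omd encodes osteomodulin (osteoadherin), both small leucine-rich proteoglycans. Proteins of this family sit on collagen fibrils and influence how the fibrils assemble, bind growth factors of the TGF-beta family and, for osteomodulin, anchor cells to mineralizing matrix. Pi15 encodes a secreted peptidase inhibitor-like protein. In growing long bone the metaphysis, the zone beneath the growth plate, holds stromal cells that lay down the collagen matrix on which osteoblasts form trabeculae. Mural cells, the smooth muscle cells and pericytes that wrap vessels, lie in the same tissue and are defined by contractile genes such as Acta2, Myh11 and Tagln.

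The label of the chosen cells, metaphyseal stromal cells with Aspn and Omd, did not describe all of them. Acta2 (smooth muscle actin), Myh11 (smooth muscle myosin) and Tagln (transgelin) together split the cells into a group with almost no such UMIs and a group with a median of 22.5 per 1000 UMIs in Control and 21.4 in Dach1OE. A line at 5 per 1000 UMIs, drawn after the values were seen, put 125 Control cells and 317 Dach1OE cells on the contractile side, which is 36.8% (95% interval 31.6 to 42.1%) and 63.1% (58.8 to 67.4%) of the chosen cells. Few cells lay near the line: 4 and 15 cells had 2.5 to 5, and 10 and 25 cells had 5 to 10 such UMIs per 1000. Omd separated the same groups. Of the 185 Control and 139 Dach1OE cells with an Omd UMI, 5.41% and 5.76% were contractile, and of the 155 and 363 cells chosen through Aspn and Pi15 without Omd, 74.2% and 85.1% were. The chosen cells are therefore described below as Omd-bearing cells (324 in all) and as contractile chosen cells, with 10 and 8 cells in both. These kinds do not cover the whole choice. Of the cells without Omd, 115 of 155 in Control and 309 of 363 in Dach1OE were contractile. The rest belong to all chosen cells but to neither kind. The tables hold no positions, so whether any of these cells lay in the metaphysis was not measured.

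**Figure D1:**
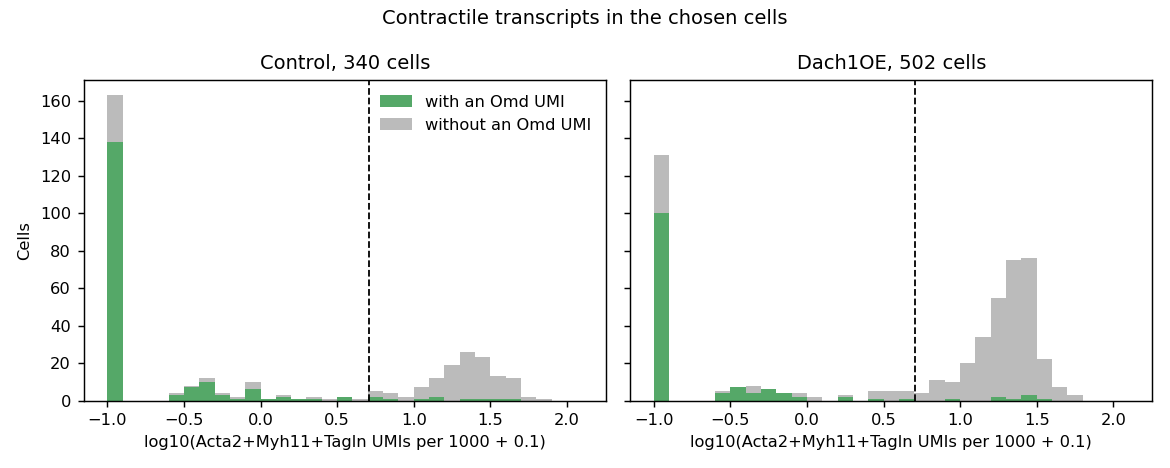
Number of chosen cells (y axis) by the summed UMIs of Acta2, Myh11 and Tagln per 1000 UMIs of the cell, plus 0.1, on a log10 scale (x axis), for Control and Dach1OE. Green bars are cells with an Omd UMI and grey bars cells without; the dashed line is the limit of 5 per 1000, and cells with Omd lie almost all to its left while most cells without Omd lie to its right.

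Aspn and Omd are neighbours. In GRCm38 they lie on the plus strand of chromosome 13 in a run of 4 such genes, with Ecm2 at chr13:49504810-49532789, Aspn at chr13:49544443-49567565, Omd at chr13:49582462-49592822 and Ogn (osteoglycin) at chr13:49608046-49624501. The gaps between them are 11653, 14896 and 15223 bases. Cenpp, a centromere protein gene on the minus strand (chr13:49464023-49652785), spans all 4, and since it is not stated whether the counts used the strand, reads of Cenpp introns and of these genes cannot be told apart. Pi15 lies apart, on the plus strand at chr1:17601901-17630939. The stretches of 250 bases upstream of Aspn and Omd (RefSeq, GRCm38, plus strand) are shown because the genes are neighbours and both were used in the choice. Capitals mark TATAAA read on either strand.
Aspn, chr13:49544193-49544442: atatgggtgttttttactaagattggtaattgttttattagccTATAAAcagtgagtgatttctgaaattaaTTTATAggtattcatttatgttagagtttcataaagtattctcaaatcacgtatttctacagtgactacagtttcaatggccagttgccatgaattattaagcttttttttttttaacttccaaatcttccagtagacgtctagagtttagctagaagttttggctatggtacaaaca
Omd, chr13:49582212-49582461: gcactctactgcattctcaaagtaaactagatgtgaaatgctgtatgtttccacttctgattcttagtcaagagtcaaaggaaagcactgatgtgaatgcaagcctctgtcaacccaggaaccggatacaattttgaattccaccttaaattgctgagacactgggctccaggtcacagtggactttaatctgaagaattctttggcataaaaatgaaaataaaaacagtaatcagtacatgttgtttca
The Aspn stretch holds 2 matches and the Omd stretch 0, and 12.4% of the 32851 promoter windows of the same length hold at least 1. GC content is 30.0% for Aspn and 38.4% for Omd, against a median of 52.4%. A match is a description of the letters and not a binding site.

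The 4 neighbours had different levels across the cell sets. Ogn, which the choice did not use, was at 1434 CPM in Control and 1208 CPM in Dach1OE in Omd-bearing cells and at 176 and 133 CPM in contractile chosen cells. Ecm2 was at 81.9 and 109 CPM in Omd-bearing cells and 141 and 127 CPM in contractile chosen cells, with its highest level among the sets compared in fibroblasts (359.9 and 419 CPM). Aspn itself was at 1049 and 1225 CPM in Omd-bearing cells and 902 and 899.7 CPM in contractile chosen cells. It was at 635 and 459.6 CPM in the 779 and 1278 other contractile cells. These passed the limits on Cdh5, Ptprc, Mmp9, Ifitm5 and Acan without being chosen. No limit on marrow stromal or fibroblast genes was set for them. In fibroblasts Aspn was at 924 and 1303 CPM, so Aspn was not particular to the chosen cells. Omd was at 1159.7 and 799 CPM in Omd-bearing cells and at 2.01 and 2.87 CPM in the other contractile cells. Cenpp, which spans them, was at 25.1 and 17.1 CPM in Omd-bearing cells.

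Each of the 3 markers that the choice did not use was higher in the Omd-bearing cells than in the contractile ones. Ndnf, a secreted neurotrophic and vascular factor, was at 522 CPM in Control and 334 CPM in Dach1OE in Omd-bearing cells and at 12.6 and 14.5 CPM in contractile chosen cells. Vcan, the gene of the proteoglycan versican, was at 1380.3 and 1158 CPM in Omd-bearing cells against 75.5 and 36.2 CPM in contractile chosen cells. Col3a1, the chain of fibrillar collagen III, was at 8278 and 10899 CPM against 1204 and 612 CPM, below its level in fibroblasts (16465 and 20560.1 CPM). With every cell thinned to 1000 UMIs, Ndnf had a UMI in 31.9% and 30.4% of Omd-bearing cells, 0.800% and 0.315% of contractile chosen cells and 0.503% and 0.314% of ECs, which should lack it. Vcan had a UMI in 60.0% and 47.8% of Omd-bearing cells, 2.40% and 0.946% of contractile chosen cells and 1.12% and 0.933% of ECs. Col3a1 had one in 82.7% and 82.6% of Omd-bearing cells, 32% and 15.1% of contractile chosen cells and 4.30% and 5.1% of ECs. The Ndnf and Vcan shares of contractile chosen cells rested on 1 and 3 of 125 Control cells and 1 and 3 of 317 Dach1OE cells, near the EC shares. Their Col3a1 share and all 3 shares of Omd-bearing cells lay well above the EC shares. Free RNA was not measured, and its part in these shares was not tested.

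At the border of the choice the values changed in steps. The 975 Control and 1538 Dach1OE cells with exactly 1 of Aspn, Omd and Pi15 had Ndnf at 87.9 and 29.0 CPM, and the 269 and 460 cells with exactly 2 had it at 260.0 and 117 CPM. Dcn, the gene of the fibril-binding proteoglycan decorin, was at 755 and 461 CPM just outside and at 2223 and 1186 CPM just inside. Acta2 was high on both sides, at 4052 and 3985 CPM outside and 4809 and 6527 CPM inside.

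Over all other kept cells, the leading genes of the Omd-bearing cells included secreted matrix and signalling genes. Ostn, which encodes the bone-derived peptide osteocrin, stood at 55.5 CPM in Control and 80.4 CPM in Dach1OE in them, at 18.9 and 0 CPM in contractile chosen cells and at 4.72 and 4.67 CPM in the cells chosen through Aspn and Pi15 without Omd. Among Omd-bearing cells it was at 55.7 and 206 CPM with all 3 of Aspn, Omd and Pi15 and at 95.5 and 35.5 CPM with Aspn and Omd. With Omd and Pi15 but no Aspn it was at only 5.19 and 0 CPM. It stayed under 1 CPM in ECs, osteoblasts and marrow stromal cells. Its log2 ratio over all other kept cells was 6.25 in Control and 7.69 in Dach1OE. Tnn (tenascin W) was at 597 and 556 CPM with log2 ratios of 5.49 and 5.11, and Ndnf had 5.13 and 5.47. Wnt16, a Wnt ligand gene, Wif1, a secreted Wnt inhibitor gene (1547 and 1317 CPM, log2 3.90 and 4.15), Tnfrsf19 (log2 3.90 and 3.88), the phosphate transporter gene Slc20a2 (log2 4.57 and 4.29) and the potassium channel gene Kcnk2 (log2 4.04 and 4.01) were also among the leading 15. Since the cells were picked out of the same tables, these ratios describe the choice.

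Early osteoblast genes were present in the Omd-bearing cells and mature ones were low. Runx2 and Sp7, which encode transcription factors of the osteoblast lineage, were at 309 and 289 CPM (Runx2) and 335 and 301 CPM (Sp7), and Sp7 was close to its level in the Ifitm5 osteoblasts (368 and 377 CPM). Alpl, the mineralization enzyme alkaline phosphatase, was at 2271 CPM in Control and 2181 CPM in Dach1OE, against 362 and 412 CPM in osteoblasts. Bglap (osteocalcin) was at 176 and 799 CPM in Omd-bearing cells and 14457 and 12629 CPM in osteoblasts, and was read in ECs too, at 468 and 563 CPM. Col1a1, the main bone collagen chain, was at 18396 and 33574 CPM against 178940 and 175928 CPM in osteoblasts. Cxcl12, a chemokine gene that marrow stromal cells hold at 37245 and 33858 CPM, was at 1576 and 1988 CPM. Markers of other cell types were read at different levels. The 7 mural markers summed to 1466 and 1539 CPM and the 8 chondrocyte markers to 1169 and 2041 CPM. In ECs, which had no limit on Acan, the chondrocyte markers summed to 11419 and 15009 CPM. In sets with that limit they summed to 1115 and 1735 CPM (marrow stromal cells) and 1103 and 1355 CPM (fibroblasts). The 8 blood cell markers summed to 209 and 1173 CPM in Omd-bearing cells, with 247 of the Dach1OE UMIs being Hba-a1 of 1 cell. The 9 fibroblast markers, 5 of them barred by the choice, summed to 33.0 and 27.4 CPM, the 6 endothelial markers to 139 and 88.9 CPM with Cdh5 at 0, and the 6 osteocyte markers to 47.6 and 82.1 CPM with Mepe and Sost at 0. The 8 marrow stromal markers summed to 2199 and 2659.7 CPM, against 60986 and 54118 CPM in marrow stromal cells.

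**Figure D2:**
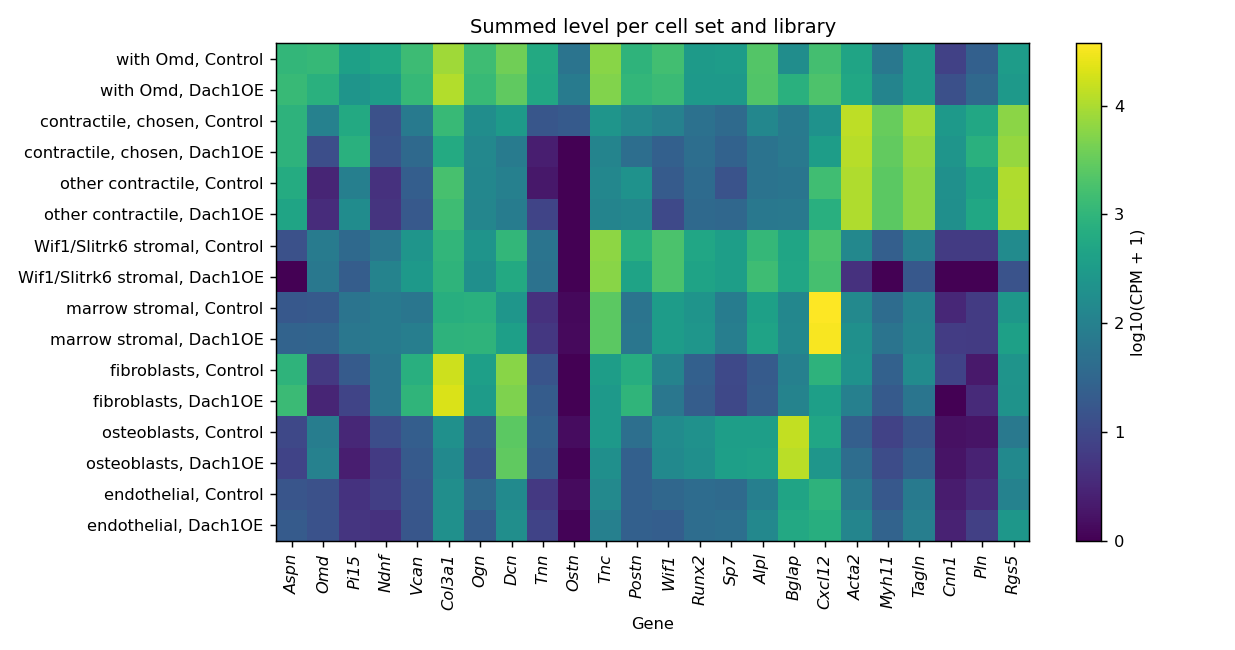
Heatmap of log10(CPM + 1) for 24 genes (columns) in 8 cell sets, each with a Control and a Dach1OE row. Omd-bearing cells are brighter than contractile chosen cells for Omd, Ndnf, Vcan, Ogn, Tnn, Wif1, Runx2 and Sp7. They are darker for Acta2, Myh11, Cnn1 and Pln. Aspn and Pi15, which the choice itself used, are bright in both.

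Within each library, 1370 of 6676 genes (20.5%) were past 1.5-fold higher in Omd-bearing than in contractile chosen cells in both libraries, and 1018 (15.2%) were past it lower. The matrix gene lists lay on the higher side. Spp1 (osteopontin) was at 946 and 1421 CPM against 18.9 and 31.8 CPM, with log2 ratios of 5.65 in Control and 5.48 in Dach1OE. Of the small leucine-rich proteoglycan genes, 6 of 9 compared were higher (Ogn, Dcn, Bgn, Fmod, Lum and Podnl1), with Lum at 1719.8 and 1567 CPM against 135 and 26.0 CPM and Fmod at 995 and 1105 CPM against 148 and 81.0 CPM. Of 21 collagen chains, 14 were higher and 3, Col4a1, Col4a2 and Col18a1 of basement membranes, were lower. Collagen folding and cross-linking genes were higher in 13 of 16, matricellular genes in 18 of 24 and osteogenic genes in 12 of 17. Genes of mural cells were lower: Pcp4l1 (log2 -5.52 and -5.33), Mcam (-4.93 and -5.29) and Lmod1, the gene of the actin-binding leiomodin of smooth muscle (-5.03 and -4.79). Of 13 immediate early and stress genes, which are induced quickly by handling as well as by signals, 12 were lower in Omd-bearing cells.

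The stromal cells closest to the Omd-bearing ones by label are those with Wif1 and Slitrk6 (105 and 72 cells). Here 437 of 5899 genes (7.41%) were higher in Omd-bearing cells in both libraries and 210 (3.56%) lower. Wif1 itself was at 1547 and 1317 CPM in Omd-bearing and 1917 and 1923 CPM in Wif1 and Slitrk6 cells, where it was a gate gene. Higher were Col3a1 at 8278 and 10899 CPM against 1029.5 and 944 CPM (log2 3.01 and 3.53) and Tnn with log2 3.40 and 3.41. Several genes of phosphate and mineral handling were lower. Dmp1, which osteocytes use to control phosphate and mineral, was at 5.28 and 20.5 CPM against 1562 and 1108 CPM (log2 -8.21 and -5.75). Phex, an endopeptidase gene of phosphate balance, had log2 -4.60 and -3.33, Enpp1, which makes the mineralization inhibitor pyrophosphate, -3.75 and -3.28, and Ibsp (bone sialoprotein) -4.22 and -2.90. Over the lists, 6 of 9 small leucine-rich proteoglycan genes and 13 of 23 collagen chains were higher, with Col13a1, Col22a1 and Col24a1 lower, and 8 of 20 osteogenic genes were lower with Alpl (2271 and 2181 CPM against 1112 and 1418 CPM) and Msx1 higher.

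Against marrow stromal cells (2461 and 986 cells), 744 of 10717 genes (6.94%) were higher in Omd-bearing cells and 1506 (14.1%) lower. Matrix genes led the higher side, with Tnn at log2 7.39 and 6.93, Lum at 5.12 and 4.32, Cthrc1, a secreted protein gene of matrix-forming cells, at 4.70 and 4.21, Postn (periostin) at 4.07 and 4.16 and Vcan at 4.52 and 3.67. On the lower side stood the complement gene C4b (log2 -5.71 and -6.32) and the dipeptidase gene Dpep1 (-4.78 and -4.75). Blood cell niche factors were lower in 13 of 16 and adipogenic regulators in 11 of 14. All chosen cells together gave 998 of 11205 genes (8.91%) higher than marrow stromal cells.

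Against periosteal and tendon fibroblasts (433 and 378 cells), 1123 of 9051 genes (12.4%) were higher in Omd-bearing cells and 1262 (13.9%) lower. Osteoblast lineage genes were higher: Alpl by log2 6.87 and 6.69 and Sp7 by 5.16 and 5.07, and 13 of 20 osteogenic genes in all. Fibroblast genes were lower: Prg4, the lubricin gene (log2 -9.77 and -7.07), Tppp3, a tubulin-binding protein gene (-7.12 and -6.36), Ly6a (-7.13 and -7.45) and Cd34 (-6.42 and -6.80). Small leucine-rich proteoglycan genes went both ways, with 3 of 12 higher and 6 lower, beside 12.4% and 13.9% of all genes.

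The combination of the 3 marker genes sorted the chosen cells further. Cells with all 3 numbered 71 in Control and 42 in Dach1OE, those with Aspn and Omd 58 and 67, those with Omd and Pi15 56 and 30, and those with Aspn and Pi15 155 and 363. Vcan was at 1688 and 1618 CPM in cells with all 3, and Dcn at 4821 and 3721 CPM, the highest of the 4 combinations in both libraries. Col3a1 was at 10684 and 12260.4 CPM with all 3, 9263 and 13283 CPM with Aspn and Omd and 3013 and 1121 CPM with Omd and Pi15. Wif1 was at 1413 and 1446, 909 and 707 and 2567 and 2983 CPM in the same order. The Omd and Pi15 cells were thus low in collagen III and tenascin W (Tnn at 135 and 20 CPM, against 731 and 788 CPM with Aspn and Omd) and high in Wif1.

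Between the cells with Aspn and Omd and those with Omd and Pi15, 2986 genes could be compared within both libraries. Mgp (matrix Gla protein, an inhibitor of calcification) was at 411 and 1049 CPM against 51.9 and 50.0 CPM, with log2 ratios of 2.99 and 4.39. H19, an imprinted long non-coding RNA gene, had 2.94 and 3.42, Cthrc1 2.47 and 2.70 and Thbs2 (thrombospondin 2) 1.84 and 1.85. Genes higher in the Omd and Pi15 cells were Cxcl14, a chemokine gene (log2 -2.02 and -2.60), Apoe, the lipoprotein gene (-2.19 and -3.05), H2-K1 of MHC class I (-2.14 and -2.34), Igfbp4 (-1.56 and -1.94) and Kcnk2 (-1.73 and -2.73). These combinations hold 30 to 67 cells a library, and the genes were picked for their ratios.

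The contractile chosen cells, like the other contractile cells, were defined by Acta2, Myh11 and Tagln, which make up most of the mural marker sum. The 7 mural markers summed to 33062 and 31135 CPM in them, 32746 and 32093 CPM in the contractile cells that were not chosen and 1466 and 1539 CPM in Omd-bearing cells, where all 7 were detected and 1 was in 25% of cells or more. Of the markers outside that definition, Rgs5, a pericyte gene, was lower, at 5869.8 and 6905 CPM against 10818 and 10368 CPM in the other contractile cells, and Notch3, a Notch receptor gene of mural cells, was at 2031 and 2028 CPM against 2147 and 2157 CPM. Leading genes over all other kept cells were Pln, the gene of the calcium pump regulator phospholamban (556 and 801 CPM, log2 6.03 and 5.86), Kcnmb1, Cnn1 (calponin), Lmod1 and Myh11. Their median depth, 2298 and 1971 UMIs, was below that of Omd-bearing cells (3735 and 3958), and their mitochondrial share was above it (16.5% and 16.3% against 12.3% and 11.4%).

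Against the other contractile cells, 66 of 9176 genes (0.719%) were higher in both libraries and 485 (5.29%) lower. Higher were Angpt4, an angiopoietin gene (log2 1.29 and 1.69), and Arl4d (1.06 and 1.74). Lower were Vtn, the vitronectin gene of pericytes (log2 -2.31 and -2.26), the endothelin receptor gene Ednrb (-2.25 and -2.68) and Stmn1, a microtubule regulator gene (-2.24 and -2.11). Of the mural markers 0 of 7 were higher and 2, Rgs5 and Kcnj8, both pericyte genes, were lower. The chosen cells made up 13.8% and 19.9% of all contractile cells within the limits on Cdh5, Ptprc, Mmp9, Ifitm5 and Acan. The other contractile cells, unlike the chosen ones, had no limit on marrow stromal or fibroblast genes. Marrow stromal markers summed to 3396 and 2240 CPM in them, against 1173 and 1349 CPM in contractile chosen cells. The part of these limits in the gene counts was not tested.

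The number of chosen cells moved in opposite directions for Omd-bearing and contractile cells. The whole choice went from 1.28% in Control (340 of 26466 cells) to 1.71% in Dach1OE (502 of 29317 cells) of kept cells, a difference of 0.428 percentage points (95% interval 0.226 to 0.629). Omd-bearing cells went from 0.699% in Control (185 of 26466 cells) to 0.474% in Dach1OE (139 of 29317 cells), a difference of -0.225 percentage points (95% interval -0.355 to -0.0983). Contractile chosen cells went from 0.472% in Control (125 of 26466 cells) to 1.08% in Dach1OE (317 of 29317 cells), a difference of 0.609 percentage points (95% interval 0.465 to 0.755), and the contractile cells not chosen went up too, by 1.42 percentage points. Marrow stromal cells fell by 5.94 percentage points over the same cells, so every share also depends on what else was captured. As a share of the 5 stromal gates together, Omd-bearing cells were 3.78% and 3.38%, a difference of -0.400 percentage points (95% interval -1.17 to 0.378) that includes 0, and contractile chosen cells 2.55% and 7.70%. The share of the whole choice also changed with limits on depth. Counted only among cells with at least 3000 UMIs it differed by -0.128 percentage points, and with every cell thinned to 1000 UMIs by 0.0980. At least 3000 UMIs were held by 22% and 17% of contractile chosen cells and by 71% and 74% of Omd-bearing cells. Depth and kind of cell cannot be told apart here.

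The mice of each library were of both sexes. Cells with Xist UMIs and cells with UMIs of Y-linked genes allowed a comparison within a sex, over the cells whose sex could be told. These were 117 of 185 and 84 of 139 Omd-bearing cells, but only 67 of 155 and 140 of 363 chosen cells without Omd. Among Xist cells the share of Omd-bearing cells differed by -0.194 percentage points (95% interval -0.431 to 0.0419), and among Y-linked cells by -0.267 percentage points (95% interval -0.533 to -0.0248). The share of contractile chosen cells differed by 0.402 percentage points (95% interval 0.207 to 0.611) and 0.404 percentage points (95% interval 0.169 to 0.642). The Omd-bearing share was thus lower in Dach1OE in both sexes, with 0 inside the interval for Xist cells, and the share of contractile chosen cells was higher in both. The contractile cells not chosen differed by 1.21 percentage points (95% interval 0.813 to 1.62) among Xist cells and by 0.101 percentage points (95% interval -0.438 to 0.627) among Y-linked cells.

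**Figure D3:**
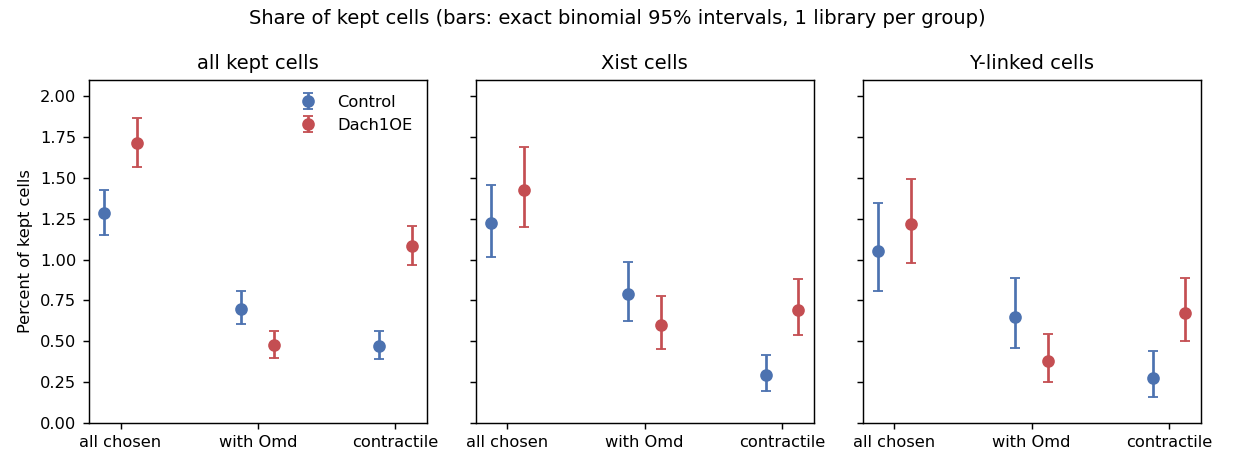
Percent of kept cells (y axis) made up by all chosen cells, Omd-bearing cells and contractile chosen cells in Control and Dach1OE, for all kept cells, for cells with Xist UMIs and for cells with Y-linked UMIs. Bars are exact binomial 95% intervals (counting error only); Omd-bearing cells are lower in Dach1OE in each panel and contractile chosen cells higher.

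Across all chosen cells, 995 of 9901 genes with at least 20 UMIs (10%) were past 1.5-fold higher in Dach1OE and 1105 (11.2%) past it lower, around a median log2 ratio of -0.04. Some of the named genes had ratios of smaller size within a kind of cell than over all chosen cells. The shares of the kinds differed between the libraries, and no cause was tested. Pln was at 149.9 CPM in Control and 389 CPM in Dach1OE, a log2 ratio of 1.38 (95% interval 1.13 to 1.63), but at 556 and 801 CPM within contractile chosen cells, where its log2 ratio was 0.53. Nrip2 had 1.40 over all chosen cells and 0.55 within the contractile ones. On the lower side, Ndnf was at 388 CPM in Control and 158 CPM in Dach1OE, a log2 ratio of -1.29 (95% interval -1.53 to -1.06), and at -0.65 within Omd-bearing cells, and Tnfrsf19 had -1.34 and -0.78. The mural markers summed to 9959 and 16274 CPM over the chosen cells. Acta2, Myh11 and Tagln, which define the contractile cells, make up most of this sum. The sum and the contractile share are therefore not independent. With contractile and other cells given equal weight, 22 of the 24 named genes stayed past 1.5-fold, the exceptions being Pln and Nrip2.

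Other named genes were past 1.5-fold within a kind of cell as well. Crispld2, a secreted glycoprotein gene, was at 157 CPM in Control and 568 CPM in Dach1OE over all chosen cells, a log2 ratio of 1.85 (95% interval 1.62 to 2.09). It was at 33.0 and 115 CPM in Omd-bearing cells, 522 and 1111 CPM in contractile chosen cells and 442 and 582 CPM in the other contractile cells. Cxcl14 was at 464 CPM in Control and 166 CPM in Dach1OE (log2 -1.48, 95% interval -1.71 to -1.26), but its ratio was 0.23 in Y-linked cells. In contractile chosen cells it had 3 UMIs in Control and 48 in Dach1OE, 43 of them in 1 cell. Npy, the neuropeptide Y gene, had 99 and 18 UMIs (log2 -2.75, 95% interval -3.56 to -2.01), but among cells with under 10% mitochondrial UMIs its ratio was 0.12. Angptl4, an angiopoietin-like gene that responds to low oxygen and fasting, had 62 and 19 UMIs (log2 -1.99, 95% interval -2.82 to -1.23), and it was also lower in ECs, at 111 and 52.5 CPM. It was the only lower member of the hypoxia and glycolysis list, which had 4 of 20 genes higher (median 0.31) over all chosen cells and 3 of 18 higher (median 0.30) in Omd-bearing cells. Of all genes, 10% were past 1.5-fold higher and 11.2% lower over all chosen cells, and 8.11% and 12.4% in Omd-bearing cells. Prss34, a basophil and mast cell protease gene, had 17 and 437 UMIs, of which 1 Dach1OE cell held 150.

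**Figure D4:**
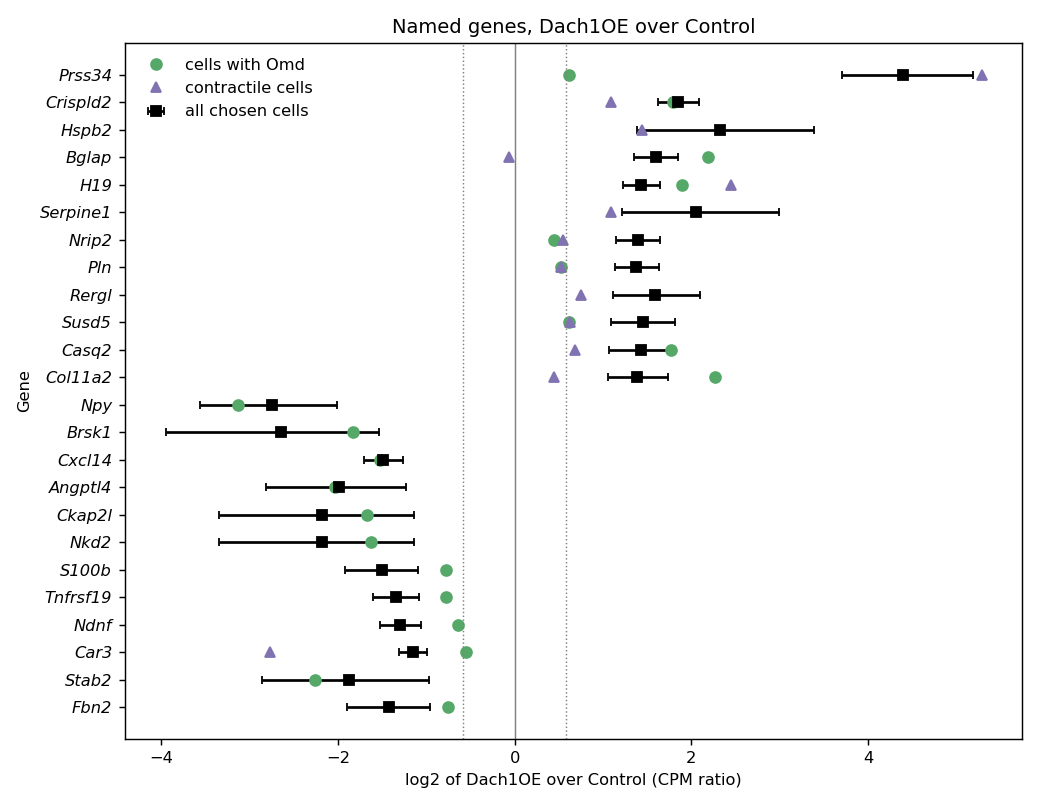
Log2 ratio of Dach1OE over Control (x axis) for the 24 genes named by the fixed rule over all chosen cells (rows). Squares with 95% intervals are all chosen cells, circles Omd-bearing cells and triangles contractile chosen cells, and dotted lines mark 1.5-fold; Pln and Nrip2 lie beyond the line over all chosen cells and inside it within both kinds of cell.

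Within Omd-bearing cells, 629 of 7758 genes (8.11%) were past 1.5-fold higher in Dach1OE and 959 (12.4%) past it lower, around a median of -0.07. The 12 named higher genes held collagen chains and osteocalcin genes beside H19, Mgp, Crispld2 and others. Col1a1 was at 18396 CPM in Control and 33574 CPM in Dach1OE, a log2 ratio of 0.87 (95% interval 0.84 to 0.90). Col11a2, a cartilage collagen chain, was at 67.4 CPM in Control and 325 CPM in Dach1OE (log2 2.27, 95% interval 1.82 to 2.75), and Col2a1, the main cartilage collagen, at 579 CPM in Control and 1243 CPM in Dach1OE (log2 1.10, 95% interval 0.93 to 1.28). Bglap was at 176 CPM in Control and 799 CPM in Dach1OE (log2 2.18, 95% interval 1.90 to 2.47, and 1.62 without the richest cell). Bglap and its near-identical copy Bglap2 can share reads. Mgp was at 181 CPM in Control and 657 CPM in Dach1OE (log2 1.86, 95% interval 1.57 to 2.15, and 1.54 without the richest cell).

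Transcripts of bone and cartilage were also read in cells that should lack them. In ECs, Col2a1 was at 6871 and 9123 CPM, Col11a2 at 682 and 924 CPM, Bglap at 468 and 563 CPM and Col1a1 at 5997 and 8493 CPM. ECs, unlike the chosen cells, had no limit on Acan or Ifitm5. Marrow stromal cells, which had both limits, held Col2a1 at 653 and 1077 CPM. Thinned to 1000 UMIs, Col2a1 had a UMI in 41.1% and 47.1% of Omd-bearing cells and 45.4% and 54.9% of ECs (median depths 3735 and 3958 against 3296 and 3187), so that share was at or below the EC share. Bglap had a UMI in 16.2% and 20.3% of Omd-bearing cells and 5.67% and 6.90% of ECs, and the osteoblast markers summed to 4309.9 and 5880.4 CPM in Omd-bearing cells. Col11a2 was higher in ECs than in Omd-bearing cells in both libraries. The part of free RNA in the Col2a1, Col11a2 and Bglap ratios was not tested. Hba-a1, an adult haemoglobin gene with the near-identical copy Hba-a2, was higher too (log2 1.82), but 1 cell held 247 of the Dach1OE UMIs and without the richest cells it was at -0.89.

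Several of these ratios differed between the sexes, without a test. Among the 79 and 56 Omd-bearing cells with Xist UMIs the log2 ratio of Col1a1 was 1.61, and among the 38 and 28 with Y-linked UMIs it was -0.19. H19 was at 221 CPM in Control and 819 CPM in Dach1OE over all Omd-bearing cells (log2 1.89, 95% interval 1.64 to 2.16), with 4.22 in Xist cells and -0.04 in Y-linked cells. Mgp had 2.08 and -0.63, the latter from 11 and 5 UMIs, and Cxcl14, which was at 662 CPM in Control and 231 CPM in Dach1OE over all of them (log2 -1.52, 95% interval -1.80 to -1.24), had -1.60 and 0.33, beside 58.5 and 28.6 CPM in ECs. Bglap2 in Omd-bearing cells had 1.14 and -0.54, the latter from 33 and 16 UMIs. With 2 mice a library, sex and mouse cannot be told apart. H19 was higher in Dach1OE in ECs as well, at 135 and 595 CPM.

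Of the 12 named genes lower in Dach1OE Omd-bearing cells, Npy was at 120.2 CPM in Control and 13.7 CPM in Dach1OE (log2 -3.13, 95% interval -4.39 to -2.10). Angptl4 was at 70.0 CPM in Control and 17.1 CPM in Dach1OE (log2 -2.03, 95% interval -3.17 to -1.04), Car2, a carbonic anhydrase gene, at 372 CPM in Control and 101 CPM in Dach1OE (log2 -1.88, 95% interval -2.31 to -1.47), and Fabp4, a fatty acid carrier gene, at 124 CPM in Control and 47.9 CPM in Dach1OE (log2 -1.37, 95% interval -2.04 to -0.75). Fabp4 was also lower in Dach1OE in ECs, at 5813 and 3095 CPM. In Omd-bearing cells 1 Control cell held 137 of 282 Car2 UMIs and 1 Dach1OE cell 33 of 59. Car2 was held by 15.1% of cells in both libraries, and its log2 ratio without the richest cell was -2.11. Of the Control Fabp4 UMIs, 31 of 94 lay in 1 cell, with -1.28 without the richest cell. Stab2, an endothelial marker (31 and 5 UMIs), and Sox18 (20 and 1 UMIs) were also among the 12. Top2a, which marks cycling cells, was at 153 CPM in Control and 49.6 CPM in Dach1OE (log2 -1.63, 95% interval -2.27 to -1.03), and the cycling markers together summed to 462 and 236 CPM. The osteoblast lineage genes Runx2, Sp7 and Alpl stayed inside 1.5-fold, with log2 ratios of -0.10, -0.16 and -0.06. Wif1 had -0.23 and Tnc -0.18.

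Within contractile chosen cells, 902 of 6326 genes (14.3%) were past 1.5-fold higher and 629 (9.94%) past it lower, around a median of 0.04. Crispld2 was at 522 CPM in Control and 1111 CPM in Dach1OE (log2 1.09, 95% interval 0.85 to 1.34) and Igf1, the insulin-like growth factor gene, at 25.2 CPM in Control and 109.9 CPM in Dach1OE (log2 2.13, 95% interval 1.08 to 3.39). H19 was at 22.0 CPM in Control and 120 CPM in Dach1OE (log2 2.45, 95% interval 1.34 to 3.81). In Control, Igf1 rested on 8 UMIs and H19 on 7 UMIs, each in 5 cells. Of the 83 Dach1OE UMIs of H19, 40 lay in 1 cell, and its ratio without the richest cell was 1.98. Prss34 was at 15.7 CPM in Control and 613 CPM in Dach1OE, in 33 of 317 Dach1OE cells, with 150 of its 424 UMIs in 1 cell. Col10a1 and Col2a1, both cartilage genes, were at 72.3 and 195 CPM and 689 and 1322 CPM in turn, and Col10a1, like Col2a1, was also higher in Dach1OE in ECs (699 and 1218 CPM). The log2 ratios of Acta2, Myh11 and Tagln, whose sum defined these cells, were -0.15, -0.11 and -0.25.

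The lower genes included metabolic and immediate early genes. Car3, a carbonic anhydrase gene, was at 148 CPM in Control and 21.7 CPM in Dach1OE (log2 -2.77, 95% interval -3.71 to -1.90), Gpx3, an extracellular glutathione peroxidase gene, at 113 CPM in Control and 15.9 CPM in Dach1OE (log2 -2.83, 95% interval -3.95 to -1.82) and Cd36, a fatty acid receptor gene, at 97.5 CPM in Control and 17.4 CPM in Dach1OE (log2 -2.49, 95% interval -3.59 to -1.49). These values rest on few cells: in Control Gpx3 was held by 10 of 125 cells with 17 of 36 UMIs in 1 cell, Car3 by 8 cells with 22 of 47 UMIs in 1 cell and Cd36 by 10 cells. Omd-bearing cells, 10 of which were among the contractile cells of Control, held 947 and 903 Gpx3 UMIs, and their part in the contractile Gpx3 level was not tested. Fos was at 446 CPM in Control and 146 CPM in Dach1OE (log2 -1.61, 95% interval -1.99 to -1.23), with Junb at -1.48, Dusp1 at -1.45 and Nr4a1 at -1.45. Dcn was at 308 CPM in Control and 79.6 CPM in Dach1OE (log2 -1.95, 95% interval -2.46 to -1.46), carried in Control by 7 cells of which 1 held 37 UMIs, and Postn at 138 CPM in Control and 43.4 CPM in Dach1OE (log2 -1.67, 95% interval -2.39 to -0.97). Tppp3 had a log2 ratio of -2.17 and Prelp, a leucine-rich proteoglycan gene, -1.37. Fos and Prelp differed between the sexes, without a test: among the 29 and 65 Xist cells of the contractile chosen set Fos had -0.33 and Prelp 0.05, and among the 16 and 50 Y-linked cells -3.30 and -2.82. Car3, Tppp3, Postn and Dcn were lower in Dach1OE in both.

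The gene lists were also counted within each kind of cell, without a test of the difference between them. Of 23 collagen chains compared in Omd-bearing cells, 8 were past 1.5-fold higher in Dach1OE and 0 lower (median 0.33), beside 8.11% and 12.4% of all genes. They were Col1a1, Col1a2 (0.62), Col11a2, Col13a1 (1.06), Col14a1 (1.66), Col16a1 (0.68), Col22a1 and Col27a1 (1.20), and Col3a1, one of the markers, was at 0.40. Col22a1 rested on 5 and 22 UMIs, 14 of them in 1 cell, and was at 1.37 without the richest cell, and Col1a1 was at -0.19 in Y-linked cells. The chondrocyte markers, at 1169 and 2041 CPM, moved with this list, and their part in it was not tested. Of 20 collagen chains in contractile chosen cells, 2 were higher and 9 lower (median -0.39), beside 14.3% and 9.94% of all genes, with Col4a1 and Col4a2 of the basement membrane inside the fold at 0.36 and 0.41. Col1a1 went from -0.43 to 0.00 there without the richest cell. Genes of the Omd-bearing cells moved with these families in the contractile chosen cells, of which 10 of 125 in Control and 8 of 317 in Dach1OE held Omd: Omd was at 101 and 11.6 CPM, Wif1 at 101 and 24.6 CPM and Alpl at 132 and 53.5 CPM, and their part in the lower matrix genes was not tested. Collagen folding and cross-linking genes in Omd-bearing cells had 2 of 16 higher and 0 lower (median 0.22), and in contractile chosen cells 1 of 14 higher and 3 lower (median 0.09).

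Of all genes, 8.11% were past 1.5-fold higher and 12.4% lower in Omd-bearing cells, and 14.3% and 9.94% in contractile chosen cells. Small leucine-rich proteoglycan genes, the family of Aspn and Omd, had 0 of 9 past 1.5-fold in either direction in Omd-bearing cells (median 0.15) and 1 of 8 higher and 4 lower in contractile chosen cells (median -0.64), beside the lower share of cells with Omd there. In Omd-bearing cells, Dcn had a log2 ratio of -0.43, Lum -0.13, Fmod 0.15, Bgn 0.09 and Ogn -0.25. Osteogenic genes had 6 of 20 higher and 1 lower in Omd-bearing cells (median 0.08), with Kcnk2 the lower one (-0.70). Enpp1 at 0.60 and Spp1 at 0.59 lay close to the 1.5-fold line. The higher ones include Bglap and its near-identical copy Bglap2, which can share reads. The richest Dach1OE cell held 176 of 467 Bglap UMIs and 110 of 348 Bglap2 UMIs. Matrix proteases and their inhibitors had 4 of 16 higher and 1 lower, with Mmp13, the collagenase gene, at 0.88 and Timp1 at 1.15. Immediate early and stress genes had 4 of 11 higher and 0 lower in Omd-bearing cells (median 0.12) and 0 of 15 higher and 9 lower in contractile chosen cells (median -0.78).

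Over all chosen cells, where 10% of all genes were past 1.5-fold higher and 11.2% lower, several lists had other values than within the kinds of cell. Matricellular genes had 3 of 27 higher and 11 lower (median -0.42), while within Omd-bearing cells they had 5 of 25 higher and 1 lower (median 0.12) and within contractile chosen cells 2 of 16 higher and 7 lower (median -0.23). Wnt signalling genes had 1 of 18 higher and 7 lower (median -0.49) over all chosen cells and 3 of 16 higher and 1 lower (median -0.05) within Omd-bearing cells. Receptors for endothelial factors had 6 of 17 higher and 0 lower (median 0.39) over all chosen cells, 1 of 12 higher and 1 lower in Omd-bearing cells and 1 of 14 higher and 0 lower in contractile chosen cells. In both libraries, 9 of 15 of these receptors were lower in Omd-bearing than in contractile chosen cells, beside 15.2% of all genes in that comparison. Hedgehog and parathyroid hormone signalling genes had 0 of 9 higher and 5 lower (median -0.59), with medians of 0.0054 over 6 genes in Omd-bearing cells and 0.26 over 4 genes in contractile chosen cells.

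**Figure D5:**
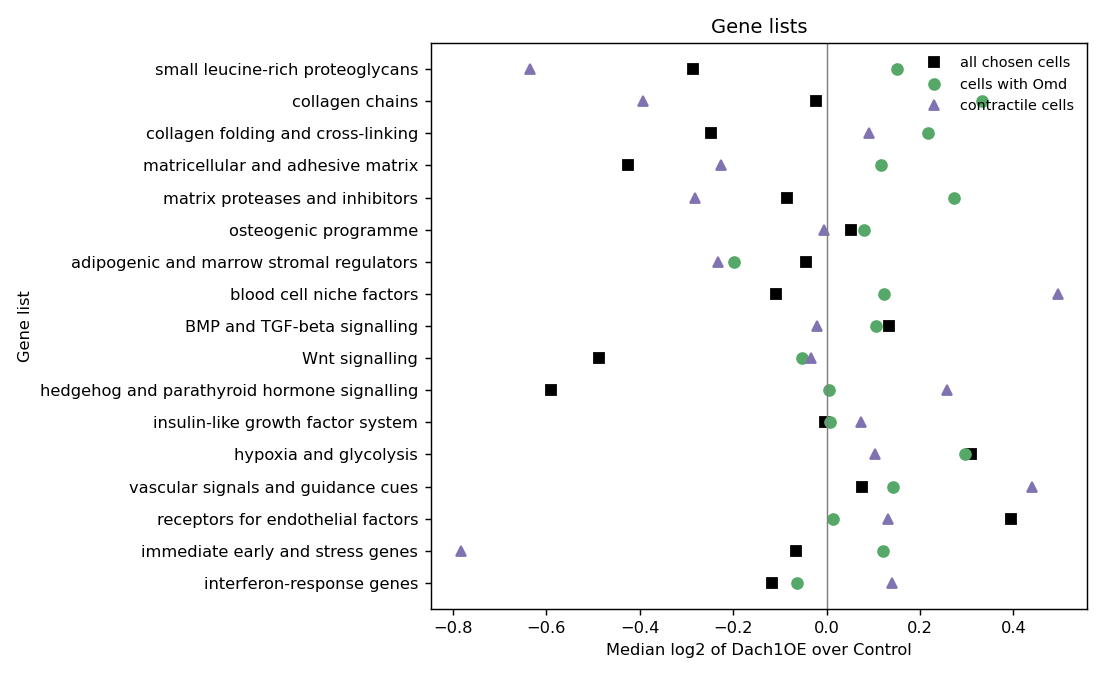
Median log2 ratio of Dach1OE over Control (x axis) for 17 gene lists (rows), over all chosen cells, Omd-bearing cells and contractile chosen cells. Collagen chains lie at 0.33 in Omd-bearing and -0.39 in contractile chosen cells, and immediate early genes at 0.12 and -0.78.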

How the data were processed

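Single-cell suspensions of femur and tibia were captured on the BD Rhapsody system, 1 Control and 1 Dach1OE library of 2 pooled mice each. The deposited tables list, for each cell and gene, reads and molecule counts (UMIs); per the file headers they were made with the BD Rhapsody WTA Analysis Pipeline 1.11 against GRCm38 with GENCODE vM19, with intronic reads counted, so unspliced RNA adds to the levels. The authors' molecule counts after recursive substitution error correction (RSEC) were used. Whether counting used the strand is not given in the sources used here. The libraries hold 143986818 and 166999989 such UMIs, so genes below about 20 UMIs in a set of cells are measured poorly.

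Cells with 500 to 6000 genes and under 25% mitochondrial UMIs were kept, and the chosen cells were taken from them by the rule given in the report. The members and the gene lists were chosen with earlier results of these data known. UMIs were summed per library and set, scaled to CPM (UMIs per 1000000 UMIs of the set) and compared as log2 ratios among genes with at least 20 UMIs over both libraries, leaving out the 19 genes of the rule. A gene was counted as past the fold at 1.5-fold (0.585 on the log2 scale), and between sets only when past it in the same direction in both libraries. The stromal comparison sets used the rule's limits and their own marker genes: Wif1 with Slitrk6, at least 3 marrow stromal genes, at least 2 fibroblast genes, or Ifitm5. ECs held UMIs of both Cdh5 and Pecam1 and none of Ptprc, with no limit on Acan, Mmp9 or Ifitm5. With 1 library per group no test was run; intervals are exact (Clopper-Pearson for shares, conditional binomial for ratios) or Newcombe's for differences of shares, at 95%, for counting error only. Named genes were the 12 with the largest rise and the 12 with the largest fall by the interval bound nearest 0, with a UMI in at least 5% of the cells of a library, plus the leading genes of each set, the markers and list members; predicted, mitochondrial, Xist and Y-linked genes were left out. The limit of 5 contractile UMIs per 1000 was set after the values were seen. No doublet caller was run; an alternative left out the 5% of cells with the most UMIs. A cell was taken as an Xist or a Y-linked cell when it held UMIs of only that kind. Gene positions came from a GENCODE annotation of GRCm38 and promoter windows from RefSeq. The scripts, tested on simulated data, ran in Python 3.11.15 with numpy 2.4.6, scipy 1.17.1, pandas 2.3.3 and matplotlib 3.10.9.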

Additional observations from a re-analysis of the deposited data

Results flagged for a closer look

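The share of Omd-bearing cells and the share of contractile chosen cells went opposite ways between the libraries, by -0.225 and 0.609 percentage points of kept cells; whether the differences differ was not tested, because each group is 1 library. With 1 sample a group, no sample could be compared with others of its group.

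Among the genes named for the size of their rise or fall and with at least 20 UMIs in each kind of cell, 6 had log2 ratios of Dach1OE over Control whose 95% counting intervals lay on opposite sides of 0 in Omd-bearing and contractile chosen cells; the difference itself was again not tested. Col1a1 had 0.87 and -0.43, and 0.81 and 0.00 without the richest cell. Cxcl14 had -1.52 and 2.88, where 43 of 48 Dach1OE UMIs of the contractile cells lay in 1 cell and the ratio without the richest cell was 1.20. Fos, an immediate early gene, had 1.15 and -1.61. Gpx3 had 0.30 and -2.83, Igf1 had -0.22 and 2.13, and Postn had 0.19 and -1.67. In contractile chosen cells Gpx3 had 36 and 11 UMIs, 17 of the Control ones in 1 cell, and -2.37 without the richest cell, and Igf1 had 8 and 76 UMIs in 5 and 17 cells. Omd-bearing Control cells held 947 Gpx3 and 529 Igf1 UMIs. The marker Col3a1, outside this selection, had 0.40 and -0.98, with intervals of 0.35 to 0.45 and -1.18 to -0.77.

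Among Omd-bearing cells, Col1a1 had a log2 ratio of 1.61 in Xist cells and -0.19 in Y-linked cells. This difference was not tested either, and with 2 mice a library sex and mouse cannot be told apart.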

How the results depend on the processing

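The share of kept cells made up by the whole choice, 0.428 percentage points higher in Dach1OE, reversed with Omd-bearing cells only (-0.225), with contractile cells left out (-0.181), among cells with at least 3000 UMIs (-0.128) and with all 3 marker genes asked for (-0.125). It was 0.0980 with cells thinned to 1000 UMIs, 0.0778 under 10% mitochondrial UMIs, 0.112 with 1000 to 6000 genes, 0.206 in Xist cells and 0.163 in Y-linked cells. Of the 5 stromal gates, the difference of 5.25 points became -0.400 with Omd-bearing cells only, -0.385 with all 3 genes, 0.105 with contractile cells left out, 3.98 thinned, 0.164 at 3000 UMIs, 1.27 under 10% mitochondrial UMIs, 2.84 with 1000 genes, 4.03 in Xist cells and 3.22 in Y-linked cells. The changes with contractile cells left out follow from which cells remain; the other causes were not tested.

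The 995 higher and 1105 lower genes became 283 and 230 with at least 100 UMIs, 1779 and 1996 with at least 1 UMI, 619 and 584 thinned, 488 and 589 with all 3 genes, 629 higher with Omd-bearing cells only and 638 lower in Y-linked cells. The 998 genes higher than in marrow stromal cells became 658 thinned. The 7 lists above the median of all genes became 3 with the mean of per-cell CPM, 16 with Omd-bearing cells only, 13 with contractile cells left out, 12 at 3000 UMIs, 4 with fibroblast genes allowed and 12 in Xist cells. Of the named genes, Rergl reversed with Omd-bearing cells only (-2.80), Bglap when thinned (-0.62), Npy under 10% mitochondrial UMIs (0.12), Nrip2 with all 3 genes (-0.23) and Cxcl14 in Y-linked cells (0.23). The hedgehog and parathyroid hormone list reversed with Omd-bearing cells only (0.0054) and in Y-linked cells (0.12). Of the other named-gene values, 403 kept direction and side of 1.5-fold and 16 kept direction only. Higher genes were 47.4% of those past the fold in the main comparison and 39.6% in Omd-bearing cells. Omd-bearing cells only, contractile cells left out, equal weight and the richest cell left out were added after seeing the data. Without the richest cell, 23 of 24 named genes of Omd-bearing and 24 of 24 of contractile chosen cells stayed past 1.5-fold. These counts were 9 and 14 when thinned, 11 and 15 in Y-linked cells, 23 and 19 in Xist cells, 14 and 5 with all 3 genes, and 21 and 10 under 10% mitochondrial UMIs, and in each of these settings fewer genes reached 20 UMIs. No paired analysis was possible because each group is 1 library.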
